A study of Glycine max with 12 samples.

Results

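Homeobox transcription factors of soybean root tips were examined across 4 treatment groups. They were taken as every annotated gene whose Pfam domain description holds a homeodomain (PF00046) or a KN homeodomain (PF05920). This gave 217 of 52872 annotated genes, 153 with PF00046 and 64 with PF05920, and no measured value entered the choice. The other domains listed for each gene placed them in classes: 30 KNOX, 34 BELL, 46 HD-ZIP I or II, 8 HD-ZIP II, 12 HD-ZIP III, 29 HD-ZIP IV, 6 PHD finger, 4 DDT and 48 genes with a homeodomain and none of the other domains. The HD-ZIP II class holds the genes with an annotated HD-ZIP II amino-terminal domain, so further members of HD-ZIP II may stand in the class called HD-ZIP I or II.

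Seedlings had 3 days of germination and 7.5 days in hydroponic medium, and 1 cm of the root tip was sampled. PPZ plus BL tips had 0.1 μM propiconazole (PPZ) for 2 days and then 0.01 nM brassinolide (BL) for 0.5 days. PPZ tips had 0.1 μM PPZ for 2.5 days, BL tips had 0.01 nM BL for 0.5 days, and mock tips had neither. For PPZ plus BL tips the PPZ time is given only up to the start of BL. Whether PPZ stayed during BL is not known here. Added BL and an end of PPZ therefore cannot be told apart in PPZ plus BL against PPZ. A BL change with PPZ means below that PPZ was given for the 2 days before BL. Each group held 3 libraries. BL is a brassinosteroid, a steroid hormone of plants, and PPZ is a triazole that blocks its synthesis. The labels do not say which of the 2 treatment times the mock seedlings matched, so treatment time and agent cannot be told apart against mock. Nor can they in PPZ against BL, where PPZ was given for 2.5 days and BL for 0.5 days. The labels give the cultivar as Wm82 where the study's methods name another, and the series text names eBL in 1 place where the labels name BL.

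Homeodomain proteins bind DNA through a helix-turn-helix fold. KNOX and BELL proteins belong to the TALE group and act as KNOX-BELL pairs. In Arabidopsis and maize, class I KNOX proteins keep shoot meristem cells undifferentiated, and in rice a KNOX protein raises the genes of brassinosteroid breakdown. HD-ZIP proteins, which join a homeodomain to a leucine zipper, are found in plants only. In Arabidopsis, HD-ZIP I genes are known from drought and abscisic acid responses, HD-ZIP II genes from shade and auxin responses, HD-ZIP III genes from xylem and organ polarity, and HD-ZIP IV genes from the epidermis, where they set root hair and trichome patterns. Brassinosteroids act through the receptor kinase BRI1 and the factors BES1 and BZR1, and in Arabidopsis the HD-ZIP II protein HAT1 works with BES1.

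Total counts lay between 18450894 and 24815541 per library, and the homeobox genes took between 0.203% and 0.317% of them. In all, 188 of the 217 genes had a count in some library and 29 had none. Levels below are CPM, counts scaled to library size after TMM normalization of all 12 libraries. Genes were tested with edgeR's quasi-likelihood test on the 6 libraries of each comparison, with Benjamini-Hochberg adjustment over all genes, and a call needed both a 3-fold difference and an adjusted p no higher than 0.01. The low-count filter let 146 of the 217 into at least 1 comparison and 71 into none. A fold of at least 3 is 1.58 on the log2 scale.

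The tissue label was checked against marker lists set by Pfam domain. Root cap genes, 8 of 9 with at least 10 counts in a library, summed to 176 to 238 CPM in PPZ plus BL tips, 155 to 195 CPM in PPZ tips, 455 to 492 CPM in BL tips and 88.3 to 129 CPM in mock tips. Expansins, proteins that loosen the wall of growing cells (62 of 82 with 10 counts), summed to 1418 to 1481 CPM in PPZ plus BL tips, 3595 to 4282 CPM in PPZ tips, 1331 to 1443 CPM in BL tips and 4422 to 6242 CPM in mock tips. Histones (57 of 64) summed to 2902 to 4361, 3309 to 4037 and 5103 to 5935 CPM in PPZ plus BL, PPZ and BL tips, and to 2429 to 2796 CPM in mock tips. Transcripts that a root tip should lack were present, with summed chlorophyll a/b-binding genes (33 of 39) at 441 to 638 CPM in PPZ plus BL tips, 183 to 252 CPM in PPZ tips, 367 to 488 CPM in BL tips and 168 to 320 CPM in mock tips. Rubisco small subunit genes (5 of 6) summed to 164 to 201 CPM in PPZ plus BL tips, 153 to 209 CPM in PPZ tips, 151 to 166 CPM in BL tips and 333 to 408 CPM in mock tips. Cyclins (76 of 87) summed to 823 to 988, 889 to 950 and 959 to 1066 CPM in PPZ plus BL, PPZ and BL tips and 704 to 830 CPM in mock tips. Genes with the domain of Casparian strip membrane proteins (63 of 80) were taken by domain alone, which does not place each of them in the endodermis. They summed to 886 to 1141, 1076 to 1141 and 842 to 1003 CPM in PPZ plus BL, PPZ and BL tips and 561 to 847 CPM in mock tips. The sums of these lists moved with treatment. Their part in the results below was not tested, and in whole tips more or fewer cells of a type and more or less RNA per cell cannot be told apart.

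As a group the homeobox genes were expressed over a wide range. Per kilobase of gene length, 111 of the 217 averaged at least 1 CPM over the 12 libraries. The highest was the HD-ZIP gene Glyma.19G010100 (chromosome 19, 953360 to 956675, Wm82.a4.v1 coordinates) with 110.0 CPM per kilobase. It had 167, 161 and 149.7 CPM in PPZ plus BL tips, 88.7, 98.3 and 148 CPM in PPZ tips, 162, 140.3 and 159.5 CPM in BL tips and 94.6, 119 and 150.2 CPM in mock tips. Its mock libraries overlapped those of every other group, and it was called in no comparison. The next was Glyma.05G175600, also HD-ZIP I or II, with 96.6 CPM per kilobase. The highest HD-ZIP II gene, Glyma.17G144700, averaged 53.0 CPM per kilobase, the highest KNOX gene, Glyma.17G104800, 22.7, the highest gene with a homeodomain alone, Glyma.18G288000, 18.6, the highest DDT gene, Glyma.13G235300, 12.8, the highest BELL gene, Glyma.06G029100, 11.1, the highest HD-ZIP III gene, Glyma.11G145800, 10.9, and the highest PHD finger gene, Glyma.10G260400, 7.53. HD-ZIP IV genes stood lowest. Their highest member, Glyma.10G238100, averaged 1.24 CPM per kilobase, and 21 of the 29 entered no comparison. The 3 genes with a RefSeq symbol were the HD-ZIP genes HDL57 (Glyma.02G022300) and HDL56 (Glyma.08G132800) and the KNOX gene H1 (Glyma.09G007500), the last of them below 1 CPM in every library.

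More homeobox genes were called after PPZ than after BL, in comparisons that share the mock libraries. Of 138 homeobox genes tested in PPZ against mock, 26 were called, 17 higher and 9 lower in PPZ tips. That is 18.8% of those tested, where 9.14% of all annotated genes tested were called in the same comparison. The higher ones were 12.3% of those tested against 6.33% of all genes, and the lower ones 6.52% against 2.81%. Without a fold threshold 44 passed, which is 31.9% against 19.6% of all genes. The share called stood above that of all genes in each of the 6 fits that left out 1 library. The count was 10 (6.90%, against 5.13% of all genes) without PPZ 1, 12 without PPZ 2 or mock 2, 13 without PPZ 3, 20 without mock 3 and 25 without mock 1. Homeobox genes are not independent replicates, and no test was made of the difference in shares.

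In BL against mock, 10 of 140 tested were called, 7 higher and 3 lower, which is 7.14% where 7.98% of all genes were called, 4.72% higher and 3.26% lower. The count was 4 without BL 2 or BL 3 and 5 without mock 2 or mock 3. In PPZ plus BL against mock, 11 of 137 were called, 7 higher and 4 lower, 8.03% where 6.84% of all genes were, 3.84% higher and 3.00% lower. That count was 16 without mock 1, 7 without mock 3, 6 without PPZ plus BL 3, 4 without PPZ plus BL 1 and 3 without mock 2 or PPZ plus BL 2. Both shares lay near those of all genes.

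In PPZ plus BL against PPZ, 11 of 144 were called, 5 higher and 6 lower, 7.64% where 7.73% of all genes were, 2.15% higher and 5.58% lower. Scaled by library size alone, the split in this comparison was 9 higher and 4 lower. The count fell to 6 without PPZ 1 or PPZ plus BL 2. In PPZ against BL, 12 of 140 were called, 5 higher and 7 lower, 8.57% where 6.82% of all genes were, 4.82% higher and 2.00% lower. The count was 7 without BL 1. In PPZ plus BL against BL, edgeR called 0 of 138, and 35 of them had an unadjusted p under 0.05. In that comparison 0.00565% of all genes, 2 in number, were called, and DESeq2 called 1 homeobox gene, Glyma.20G156500. Without a fold threshold 26 passed in BL against mock (18.6%, beside 21.5% of all genes), 22 in PPZ plus BL against mock (16.1%, beside 14.2%), 27 in PPZ plus BL against PPZ (18.8%, beside 19.5%) and 30 in PPZ against BL (21.4%, beside 26.5%). In total 38 homeobox genes were called in at least 1 comparison, 17 of them in 1 comparison, 11 in 2, 9 in 3 and 1 in 4.

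**Figure D1:**
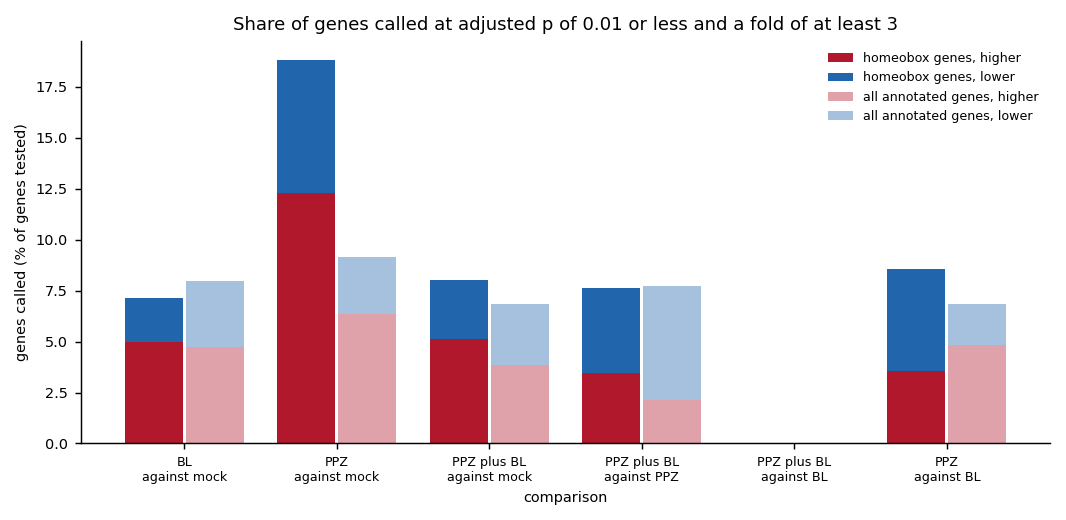
Share of genes called (percent of genes tested, y axis) in each of the 6 comparisons (x axis) under both thresholds. Dark bars are the homeobox genes and pale bars all annotated genes, with red for higher and blue for lower in the first-named group. The homeobox bar for PPZ against mock reaches 18.8% beside 9.14% of all genes, while in the others the homeobox bars reach 0 to 8.57% beside 0.00565 to 7.98%.

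**Figure D2:**
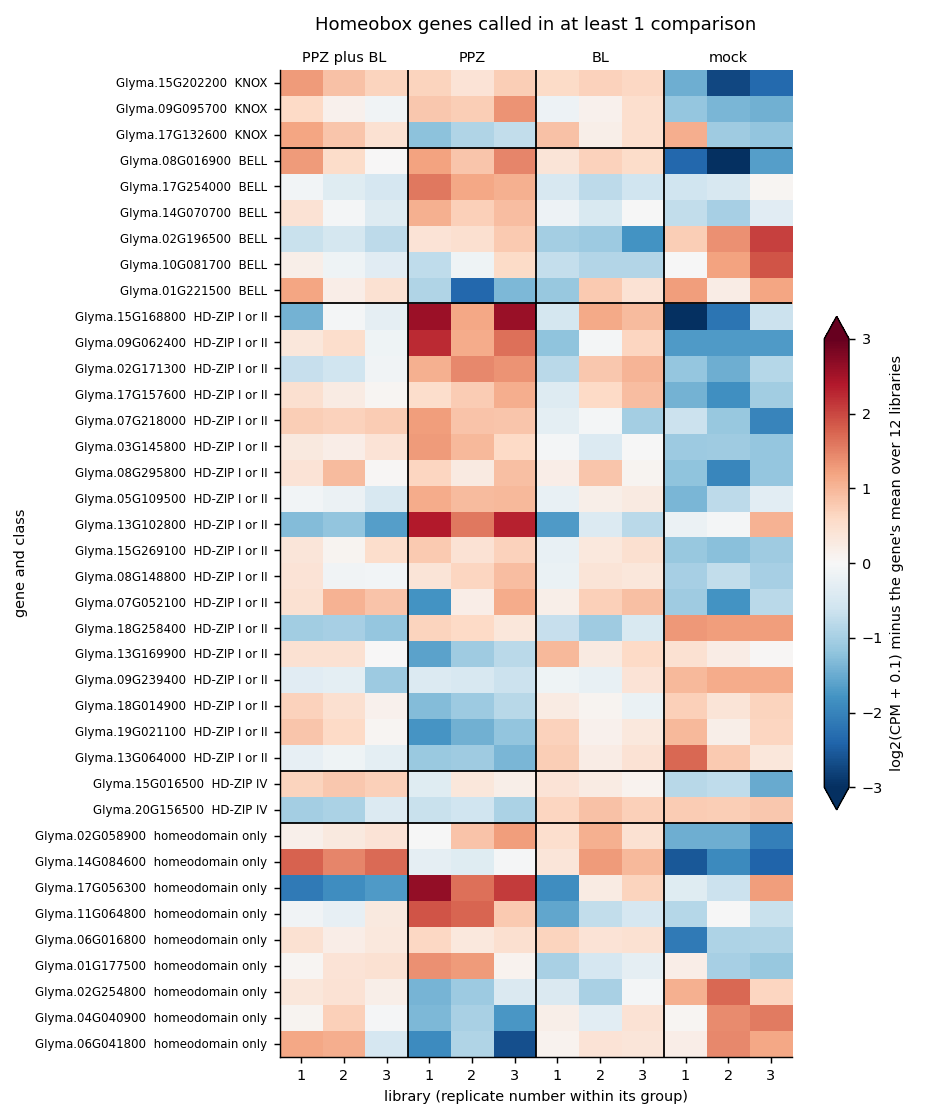
Level of the 38 homeobox genes called in at least 1 comparison (rows, ordered by class and then by PPZ against mock) in each of the 12 libraries (columns, with replicate numbers within a group). Colours give log2(CPM + 0.1) minus the mean of the gene over the 12 libraries, red above and blue below it. In 17 rows the PPZ columns were called higher than the mock columns and in 9 lower, and many rows set the PPZ columns apart from all others.

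Among KNOX genes, 2 of 19 tested in PPZ against mock were called, both higher, a share near the 9.14% of all genes called (6.33% higher). The first was Glyma.15G202200 (chromosome 15, 25957456 to 25964220), the KNOX gene called in the most comparisons. It had 69.8, 53.3 and 46.3 CPM in PPZ plus BL tips, 46.4, 38.2 and 48.2 CPM in PPZ tips, 43.5, 46.6 and 44.6 CPM in BL tips and 10.4, 4.31 and 5.63 CPM in mock tips. Every treated library lay above every mock library, and the 3 treated groups overlapped with each other. It was called against mock in PPZ plus BL (log2 fold change 3.06 ± 0.33 (SE), edgeR adjusted p = 0.00124), in PPZ (log2 fold change 2.71 ± 0.31 (SE), edgeR adjusted p = 0.00116) and in BL (log2 fold change 2.73 ± 0.30 (SE), edgeR adjusted p = 0.00126). Each of these calls held in all 6 fits that left out 1 library. The second was Glyma.09G095700 (chromosome 9, 13735478 to 13749454), with 23.2, 16.7 and 14.1 CPM in PPZ plus BL tips, 26.6, 25.4 and 38.6 CPM in PPZ tips, 13.6, 16.6 and 21.6 CPM in BL tips and 6.8, 5.78 and 5.51 CPM in mock tips. Again all treated libraries lay above all mock libraries, with PPZ tips the highest. The call in PPZ against mock (log2 fold change 2.33 ± 0.20 (SE), edgeR adjusted p = 0.000543) held in all 6 fits. In BL tips its log2 fold change against mock was 1.52 ± 0.20 (edgeR adjusted p = 0.00199), just under the fold threshold.

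Another KNOX gene, Glyma.17G132600 (chromosome 17, 10652385 to 10657853), was instead low in PPZ tips. It had 2.89, 2.25 and 1.7 CPM in PPZ plus BL tips, 0.46, 0.60 and 0.69 CPM in PPZ tips, 2.33, 1.39 and 1.76 CPM in BL tips and 2.69, 0.53 and 0.48 CPM in mock tips. PPZ libraries stood below all PPZ plus BL and BL libraries and overlapped the mock libraries. It was called higher in PPZ plus BL than in PPZ (log2 fold change 1.94 ± 0.32 (SE), edgeR adjusted p = 0.00267) and lower in PPZ than in BL (log2 fold change -1.64 ± 0.31 (SE), edgeR adjusted p = 0.0042), while mock 1 stood well above mock 2 and mock 3. The first of these calls was lost without PPZ 1, PPZ 2 or PPZ plus BL 2 (edgeR adjusted p 0.0115 to 0.0131) and the second without BL 1, BL 3, PPZ 1 or PPZ 2 (edgeR adjusted p 0.0123 to 0.0177). The most highly expressed KNOX gene, Glyma.17G104800, had 68.5, 43.8 and 37.7 CPM in PPZ plus BL tips, 38, 31.5 and 40 CPM in PPZ tips, 33.6, 47 and 48.4 CPM in BL tips and 23, 23.8 and 30.1 CPM in mock tips. Every treated library lay above every mock library, but it was called in no comparison (edgeR adjusted p = 0.0194 for PPZ plus BL, 0.032 for PPZ and 0.0148 for BL against mock). It shares 586 bases with a neighbouring gene on the same strand, so reads of the pair may not be told apart.

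Summed over the 30 KNOX genes, levels were 313, 229 and 203 CPM in PPZ plus BL tips, 249, 214 and 264 CPM in PPZ tips, 189, 222 and 221 CPM in BL tips, and 134, 154 and 177 CPM in mock tips. All treated libraries stood above the mock libraries. Without the 2 genes called in PPZ against mock, the remaining 28 summed to 143 to 220 CPM in PPZ plus BL tips, 151 to 177 CPM in PPZ tips, 132 to 159 CPM in BL tips and 117 to 166 CPM in mock tips, and the groups overlapped. Without a fold threshold, 4 KNOX genes were higher and 2 lower in PPZ tips, where 11.3% of all genes passed as higher and 8.25% as lower. The 19 tested had a median log2 fold change of 0.80, beside 0.00 over all genes.

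**Figure D3:**
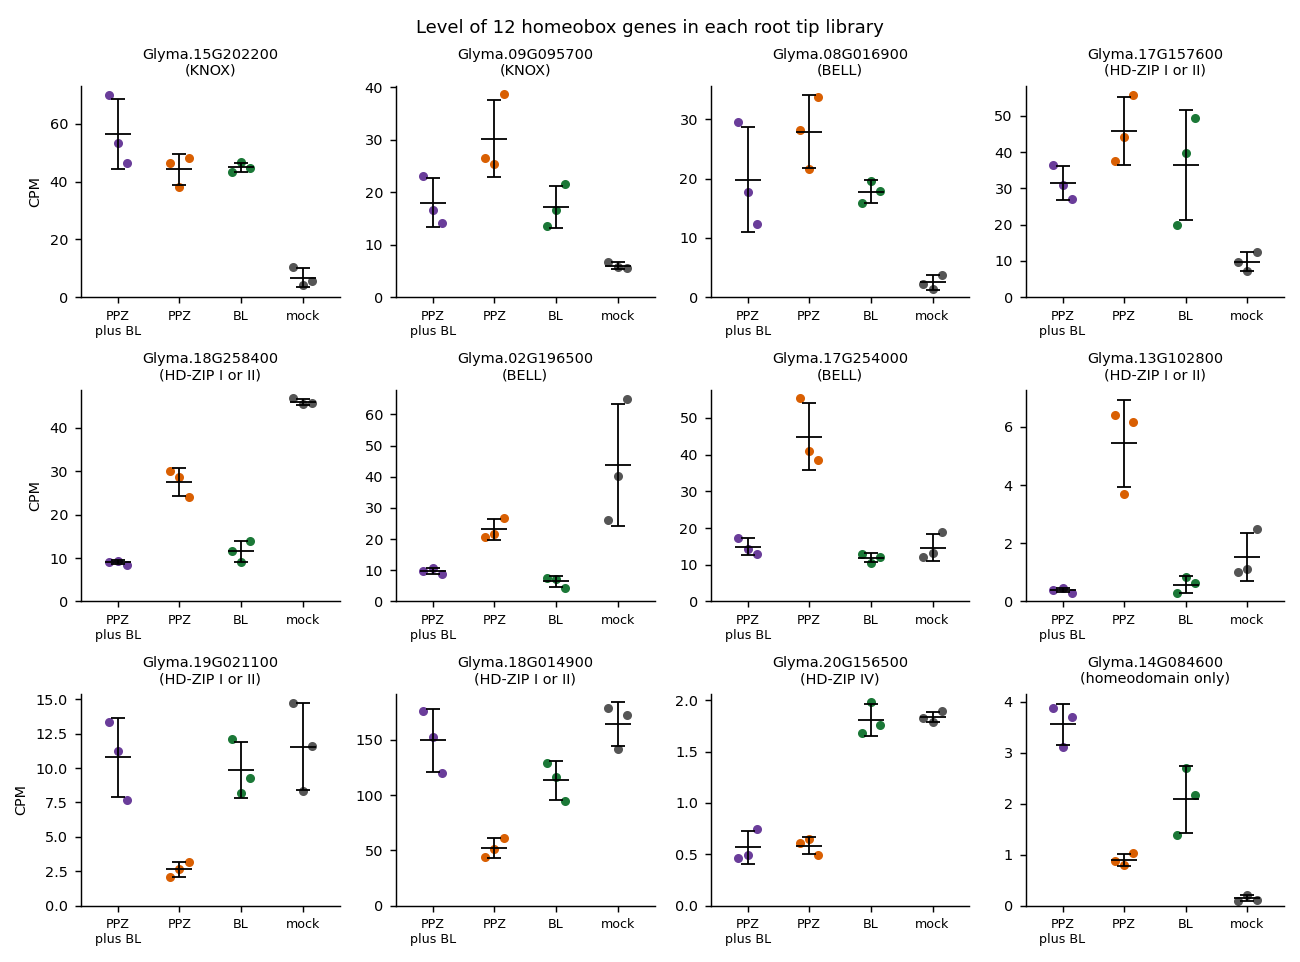
Level (CPM, y axis, from 0) of 12 homeobox genes in each library, by group (x axis). Points are libraries, horizontal bars the mean and whiskers the SD of 3 libraries. Glyma.15G202200, Glyma.09G095700, Glyma.08G016900 and Glyma.17G157600 are low in mock tips alone, Glyma.17G254000 and Glyma.13G102800 are high in PPZ tips alone, and Glyma.19G021100 and Glyma.18G014900 are low in PPZ tips alone.

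BELL proteins are the partners of KNOX proteins, and their genes changed in both directions. In PPZ against mock, 4 of 21 BELL genes were called, 3 higher and 1 lower, where 6.33% of all genes were called higher and 2.81% lower. Glyma.08G016900 (chromosome 8, 1358993 to 1363456) resembled the KNOX genes above in its pattern. It had 29.4, 17.8 and 12.3 CPM in PPZ plus BL tips, 28.2, 21.5 and 33.8 CPM in PPZ tips, 15.9, 19.6 and 17.9 CPM in BL tips and 2.28, 1.42 and 3.78 CPM in mock tips, and no mock library reached any treated library. It was higher than mock in PPZ plus BL (log2 fold change 2.96 ± 0.44 (SE), edgeR adjusted p = 0.00327), in PPZ (log2 fold change 3.46 ± 0.35 (SE), edgeR adjusted p = 0.00079) and in BL (log2 fold change 2.82 ± 0.32 (SE), edgeR adjusted p = 0.00137). The PPZ and BL calls held in all 6 fits, and the PPZ plus BL call was lost without mock 2 or PPZ plus BL 2 (edgeR adjusted p 0.0141 to 0.0152).

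Glyma.17G254000 (chromosome 17, 40890091 to 40894908) was highest in PPZ tips. It had 17.4, 14.3 and 13 CPM in PPZ plus BL tips, 55.4, 41 and 38.4 CPM in PPZ tips, 13, 10.53 and 12.1 CPM in BL tips and 12.1, 13.1 and 18.9 CPM in mock tips. PPZ libraries stood above the 9 others, which overlapped. The gene was lower in PPZ plus BL than in PPZ (log2 fold change -1.61 ± 0.18 (SE), edgeR adjusted p = 0.000432), higher in PPZ than in mock (log2 fold change 1.61 ± 0.22 (SE), edgeR adjusted p = 0.00198), and higher in PPZ than in BL (log2 fold change 1.93 ± 0.17 (SE), edgeR adjusted p = 0.00022). The PPZ against BL call held in all 6 fits. The others lie close to the fold threshold, and each was lost in 3 of 6 fits, where the log2 fold change was -1.57 to -1.45 for PPZ plus BL against PPZ (without PPZ 1, PPZ plus BL 2 or PPZ plus BL 3) and 1.44 to 1.5 for PPZ against mock (without mock 1, mock 2 or PPZ 1).

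Glyma.02G196500 (chromosome 2, 39091419 to 39096777) was lowest in the groups that had BL. It had 9.76, 10.7 and 8.93 CPM in PPZ plus BL tips, 20.8, 21.7 and 26.9 CPM in PPZ tips, 7.66, 7.29 and 4.4 CPM in BL tips and 26.1, 40.2 and 64.8 CPM in mock tips. No BL or PPZ plus BL library reached a PPZ or mock library, while PPZ 3 (26.9 CPM) passed mock 1 (26.1 CPM). It was called lower than mock in PPZ plus BL (log2 fold change -2.16 ± 0.32 (SE), edgeR adjusted p = 0.00341) and in BL (log2 fold change -2.75 ± 0.37 (SE), edgeR adjusted p = 0.00212), and higher in PPZ than in BL (log2 fold change 1.84 ± 0.20 (SE), edgeR adjusted p = 0.000494). The last held in all 6 fits. The call in PPZ plus BL was lost without mock 2 or any 1 of the PPZ plus BL libraries (edgeR adjusted p 0.0134 to 0.0185), and that in BL without BL 2 or BL 3 (0.0114 to 0.0131). The summed expansins given above were also lowest in the groups that had BL, and their part here was not tested.

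Other BELL calls rested on fewer libraries. Glyma.14G070700, the third BELL gene called higher after PPZ, had 23, 18 and 20.7 CPM in PPZ tips and 6.49, 5.36 and 8.61 CPM in mock tips. Its log2 fold change of 1.59 ± 0.20 (SE) lay at the fold threshold (edgeR adjusted p = 0.00153). That call was kept in 3 of 6 fits and was not made by DESeq2. Glyma.10G081700 had 7.05, 6.23 and 6.26 CPM in BL tips and 11.6, 27.1 and 42.9 CPM in mock tips (log2 fold change -2.06 ± 0.43 (SE), edgeR adjusted p = 0.00894), and the call held only without mock 1. Glyma.01G221500, a gene with few counts, had 1.65, 0.78 and 0.95 CPM in PPZ plus BL tips, 0.31, 0.05 and 0.20 CPM in PPZ tips and 1.73, 0.79 and 1.65 CPM in mock tips. It was higher in PPZ plus BL than in PPZ (log2 fold change 2.55 ± 0.56 (SE), edgeR adjusted p = 0.00958) and lower in PPZ than in mock (log2 fold change -2.88 ± 0.58 (SE), edgeR adjusted p = 0.00795), and both calls were lost whichever library was left out (adjusted p up to 0.0318 by edgeR). The highest BELL genes per kilobase, Glyma.06G029100 and Glyma.19G199500, were not called. The first averaged 48.4 ± 14.3 CPM in PPZ plus BL tips, 36.7 ± 4.31 CPM in PPZ tips, 42 ± 4.31 CPM in BL tips and 50.5 ± 9.04 CPM in mock tips (SD, n = 3 each). Summed over the 34 BELL genes, levels were 215 to 377 CPM in PPZ plus BL tips, 287 to 376 CPM in PPZ tips, 222 to 255 CPM in BL tips and 223 to 375 CPM in mock tips. Every PPZ library lay above every BL library, and the other pairs of groups overlapped.

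HD-ZIP I or II was the class with the most calls. After PPZ, 14 of 38 tested were called, 10 higher and 4 lower, where 9.14% of all genes were called, 6.33% higher and 2.81% lower. The class held more than any other of the 26 calls of that comparison. In BL against mock 3 of 39 were called, near the 7.98% of all genes, and in PPZ plus BL against mock 5 of 38, where 6.84% of all genes were. Summed over the 46 genes, the level was 1061 to 1389 CPM in PPZ plus BL tips, 833 to 1142 CPM in PPZ tips, 1006 to 1032 CPM in BL tips and 1243 to 1557 CPM in mock tips. The treated and mock ranges overlapped for PPZ plus BL alone, where both other treated groups lay below mock. The median log2 fold change in PPZ against mock was -0.10, beside 0.00 over all genes.

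Several HD-ZIP genes were raised in PPZ tips and lower again in PPZ plus BL tips. Glyma.02G171300 (chromosome 2, 28807464 to 28809958) had 3.41, 3.65 and 5.14 CPM in PPZ plus BL tips, 11.9, 15.4 and 14.4 CPM in PPZ tips, 3.11, 9.86 and 11.3 CPM in BL tips and 2.44, 1.94 and 3.02 CPM in mock tips. Its PPZ libraries stood above all others, and BL 1 stood far below BL 2 and BL 3. It was lower in PPZ plus BL than in PPZ (log2 fold change -1.79 ± 0.19 (SE), edgeR adjusted p = 0.000366) and higher in PPZ than in mock (log2 fold change 2.48 ± 0.21 (SE), edgeR adjusted p = 0.000531), and both calls held in all 6 fits.

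Glyma.13G102800 (chromosome 13, 20808737 to 20810334) was close to absent from PPZ plus BL and BL tips. It had 0.41, 0.45 and 0.30 CPM in PPZ plus BL tips, 6.42, 3.7 and 6.18 CPM in PPZ tips, 0.29, 0.84 and 0.62 CPM in BL tips and 1.01, 1.1 and 2.49 CPM in mock tips. No PPZ library was reached by any other library. It was lower in PPZ plus BL than in PPZ (log2 fold change -3.79 ± 0.32 (SE), edgeR adjusted p = 0.000141) and higher in PPZ than in BL (log2 fold change 3.22 ± 0.38 (SE), edgeR adjusted p = 0.00064), each held in all 6 fits, while PPZ against mock missed the threshold (edgeR adjusted p = 0.0123). Glyma.15G168800 (chromosome 15, 15024078 to 15026109) was near the limit of detection in mock tips, with 0.26, 0.82 and 0.70 CPM in PPZ plus BL tips, 5.6, 2.05 and 5.74 CPM in PPZ tips, 0.57, 2.02 and 1.76 CPM in BL tips and 0, 0.11 and 0.52 CPM in mock tips. Its PPZ libraries stood above the others, although BL 2, at 2.02 CPM, came close to PPZ 2, at 2.05 CPM. It was lower in PPZ plus BL than in PPZ (log2 fold change -2.89 ± 0.50 (SE), edgeR adjusted p = 0.00333) and higher in PPZ than in mock (log2 fold change 4.26 ± 0.82 (SE), edgeR adjusted p = 0.00689). Each call was kept in 2 of 6 fits, with adjusted p between 0.0102 and 0.0121 for the first without PPZ 1, PPZ 3, PPZ plus BL 2 or PPZ plus BL 3 and between 0.0143 and 0.032 for the second without mock 2, PPZ 1, PPZ 2 or PPZ 3 (edgeR).

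Glyma.05G109500 and Glyma.03G145800 followed with smaller changes. Glyma.05G109500 (chromosome 5, 29119317 to 29121009) had 10.8, 10.2 and 8.18 CPM in PPZ plus BL tips, 25, 22.4 and 22.7 CPM in PPZ tips, 9.91, 12.9 and 13.9 CPM in BL tips and 4.36, 6.62 and 9.18 CPM in mock tips, with PPZ libraries above all others and the other groups overlapping in part. It was called in PPZ against mock (log2 fold change 1.79 ± 0.25 (SE), edgeR adjusted p = 0.00223), and not without mock 1, mock 2, PPZ 1 or PPZ 2 (log2 fold change 1.53 to 1.83). In PPZ plus BL against PPZ its log2 fold change was -1.27 ± 0.14 (edgeR adjusted p = 0.000392), under the fold threshold. Glyma.03G145800 (chromosome 3, 37307719 to 37310202) had 6.1, 5.7 and 6.63 CPM in PPZ plus BL tips, 12.1, 9.84 and 7.51 CPM in PPZ tips, 4.75, 3.71 and 4.86 CPM in BL tips and 2.28, 2.31 and 2.17 CPM in mock tips. All treated libraries lay above all mock libraries, and PPZ against mock was called (log2 fold change 2.12 ± 0.22 (SE), edgeR adjusted p = 0.000864) in all 6 fits. In PPZ plus BL against PPZ its log2 fold change of -0.69 ± 0.19 did not pass (edgeR adjusted p = 0.0252). Glyma.09G062400 had no counts in the 3 mock libraries and 1.43, 0.60 and 0.93 CPM in PPZ tips. Against the floor of 3 counts per library it was at least 6.87-fold higher in PPZ tips (edgeR adjusted p = 0.00426), a call kept without mock 1 or mock 3 only. This gene held 6, 9 and 4 counts in PPZ plus BL libraries, 28, 12 and 19 in PPZ libraries and 1, 5 and 8 in BL libraries.

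Glyma.17G157600 (chromosome 17, 13437914 to 13439823) was high in all treated groups. It had 36.5, 30.9 and 27 CPM in PPZ plus BL tips, 37.4, 44.3 and 55.8 CPM in PPZ tips, 19.8, 39.7 and 49.5 CPM in BL tips and 9.64, 7.19 and 12.6 CPM in mock tips. No mock library reached a treated library. It was higher than mock in PPZ plus BL (log2 fold change 1.68 ± 0.22 (SE), edgeR adjusted p = 0.00237), in PPZ (log2 fold change 2.22 ± 0.24 (SE), edgeR adjusted p = 0.00093) and in BL (log2 fold change 1.89 ± 0.36 (SE), edgeR adjusted p = 0.00631). The PPZ call held in all 6 fits, the PPZ plus BL call was lost without mock 2, PPZ plus BL 1 or PPZ plus BL 2 (log2 fold change 1.48 to 1.68), and the BL call without mock 2, mock 3, BL 2 or BL 3 (1.59 to 2.11, edgeR adjusted p 0.0118 to 0.0274).

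Further HD-ZIP genes with few counts were also higher after treatment. Glyma.07G218000 had 1.6, 1.56 and 1.65 CPM in PPZ plus BL tips, 2.34, 1.75 and 1.72 CPM in PPZ tips and 0.56, 0.37 and 0.16 CPM in mock tips, and was called against mock in PPZ plus BL (edgeR adjusted p = 0.00875) and in PPZ (edgeR adjusted p = 0.00556), each kept in 1 of 6 fits. Glyma.08G295800 held 48 counts in PPZ tips, 46 in BL tips and 8 in mock tips, a ratio of 6.36 for PPZ over mock (95% interval 2.98 to 15.6) and of 5.42 for BL over mock (2.53 to 13.3). Glyma.07G052100 held 53 counts in PPZ plus BL tips and 9 in mock tips, a ratio of 5.87 (2.87 to 13.5). These intervals are exact and cover counting error only. Glyma.07G052100 also held 12, 18 and 17 counts in BL libraries and 1, 10 and 21 in PPZ libraries. Its log2 fold change in BL against mock was 2.29 ± 0.51 (SE) (edgeR adjusted p = 0.0113), which was not called. Glyma.08G295800 held 13, 25 and 10 counts in PPZ plus BL libraries. The calls of Glyma.08G295800 in BL (edgeR adjusted p = 0.00955) and of Glyma.07G052100 (edgeR adjusted p = 0.00887) were lost whichever library was left out. The call of Glyma.08G295800 in PPZ (edgeR adjusted p = 0.0055) was kept in 1 of 6 fits, with an edgeR adjusted p of 0.0152 to 0.0239 in the others.

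Lower levels in PPZ tips were led by Glyma.18G014900, at 39.6 CPM per kilobase the highest of the 38 called genes (chromosome 18, 1050486 to 1054239). It had 176, 152 and 119.8 CPM in PPZ plus BL tips, 44.1, 51 and 61.4 CPM in PPZ tips, 129, 116 and 94.8 CPM in BL tips and 179, 141 and 173 CPM in mock tips. The highest PPZ library, 61.4 CPM, stood below the lowest of the other 9, BL 3 at 94.8 CPM. PPZ against mock was called (log2 fold change -1.65 ± 0.17 (SE), edgeR adjusted p = 0.000778) and lost without PPZ 1, at a log2 fold change of -1.54. In PPZ plus BL against PPZ the log2 fold change was 1.51 ± 0.19 (edgeR adjusted p = 0.000692), under the fold threshold.

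Glyma.19G021100 (chromosome 19, 2253702 to 2257275) was also lowest in PPZ tips. It had 13.4, 11.3 and 7.68 CPM in PPZ plus BL tips, 2.09, 2.65 and 3.19 CPM in PPZ tips, 12.1, 8.17 and 9.26 CPM in BL tips and 14.7, 8.35 and 11.6 CPM in mock tips, and its PPZ libraries stood below all others, which overlapped. It was higher in PPZ plus BL than in PPZ (log2 fold change 2.01 ± 0.26 (SE), edgeR adjusted p = 0.000841), lower in PPZ than in mock (log2 fold change -2.13 ± 0.27 (SE), edgeR adjusted p = 0.00151) and lower in PPZ than in BL (log2 fold change -1.89 ± 0.21 (SE), edgeR adjusted p = 0.000505). Only the call against mock was lost in any of the 6 fits, without PPZ 2 (edgeR adjusted p 0.0108). Glyma.13G169900 had 14.8, 15 and 11 CPM in PPZ plus BL tips, 3.46, 5.15 and 6.13 CPM in PPZ tips, 21.2, 13 and 16.4 CPM in BL tips and 14.9, 12.7 and 11.1 CPM in mock tips. It was called lower in PPZ than in BL (log2 fold change -1.77 ± 0.24 (SE), edgeR adjusted p = 0.00106), and lost without PPZ 1 at a log2 fold change of -1.58. It shares 373 bases with a neighbouring gene on the same strand.

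Glyma.13G064000 was lower in PPZ tips too. It had 4.7, 5.12 and 4.59 CPM in PPZ plus BL tips, 2.55, 2.65 and 2.11 CPM in PPZ tips, 9.5, 6.61 and 7.6 CPM in BL tips and 18.7, 9.72 and 7.12 CPM in mock tips. PPZ libraries were the lowest, and mock 1 stood well above the other mock libraries. It was lower in PPZ than in mock (log2 fold change -2.28 ± 0.37 (SE), edgeR adjusted p = 0.00389) and than in BL (log2 fold change -1.69 ± 0.19 (SE), edgeR adjusted p = 0.000523). The first was lost without mock 2 or any 1 of the PPZ libraries (edgeR adjusted p 0.0111 to 0.02), the second without BL 1 (log2 fold change -1.55).

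A further pair of HD-ZIP genes was lower than mock in several treated groups. Glyma.18G258400 (chromosome 18, 54653700 to 54656439) had 9.14, 9.39 and 8.48 CPM in PPZ plus BL tips, 30.1, 28.6 and 24 CPM in PPZ tips, 11.7, 9.06 and 13.8 CPM in BL tips and 46.8, 45.5 and 45.6 CPM in mock tips. The order of the groups was clean, with mock tips highest, PPZ tips next and both groups with BL lowest. It was lower in PPZ plus BL than in mock (log2 fold change -2.35 ± 0.11 (SE), edgeR adjusted p = 0.000137) and than in PPZ (log2 fold change -1.63 ± 0.13 (SE), edgeR adjusted p = 9.38e-05), and lower in BL than in mock (log2 fold change -1.99 ± 0.16 (SE), edgeR adjusted p = 0.000612). Both calls against mock held in all 6 fits, and the call against PPZ was lost without PPZ 1 or PPZ plus BL 3 at a log2 fold change of -1.58. In PPZ against mock its log2 fold change was -0.74 ± 0.12 (edgeR adjusted p = 0.00343). The summed expansins held the same order of groups, and their part was not tested. Glyma.09G239400 had 2.58, 2.66 and 1.5 CPM in PPZ plus BL tips, 2.44, 2.35 and 2.06 CPM in PPZ tips, 3.03, 2.82 and 4.4 CPM in BL tips and 6.55, 7.3 and 7.24 CPM in mock tips. All treated libraries lay below all mock libraries, and it was called lower in PPZ plus BL (log2 fold change -1.64 ± 0.25 (SE), edgeR adjusted p = 0.00377, kept in 1 of 6 fits) and in PPZ (log2 fold change -1.62 ± 0.18 (SE), edgeR adjusted p = 0.000953, lost without PPZ 3).

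The abundant HD-ZIP gene Glyma.05G175600 (chromosome 5, 36461438 to 36463118) was not called, since its changes stayed under 3-fold. It had 98.2, 87.2 and 88 CPM in PPZ plus BL tips, 57.5, 68.5 and 65 CPM in PPZ tips, 76.6, 68.7 and 62.7 CPM in BL tips and 184, 174 and 173 CPM in mock tips. Every mock library lay above every treated library. Against mock the log2 fold change was -0.96 ± 0.12 in PPZ plus BL (edgeR adjusted p = 0.00208), -1.47 ± 0.12 in PPZ (edgeR adjusted p = 0.000498) and -1.35 ± 0.12 in BL (edgeR adjusted p = 0.000752). Glyma.06G190200 and Glyma.08G132800 (HDL56) were likewise lower than mock in PPZ tips without reaching 3-fold, at -1.10 ± 0.19 (edgeR adjusted p = 0.00426) and -0.81 ± 0.14 (edgeR adjusted p = 0.00439).

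HD-ZIP II and HD-ZIP III genes were all expressed, and none was called in any comparison. All 8 HD-ZIP II and all 12 HD-ZIP III genes passed the filter. The best expressed HD-ZIP II gene, Glyma.17G144700, had 79.2, 78.6 and 79.3 CPM in PPZ plus BL tips, 108, 100.01 and 75.8 CPM in PPZ tips, 56.8, 62.2 and 65.3 CPM in BL tips and 100.5, 102 and 87.1 CPM in mock tips. BL libraries stood below the mock libraries, with a log2 fold change of -0.65 ± 0.12 (edgeR adjusted p = 0.00505). Glyma.01G207300 averaged 49.5 ± 1.42 CPM in PPZ plus BL tips, 36 ± 6.47 CPM in PPZ tips, 39.5 ± 10.9 CPM in BL tips and 80.6 ± 38.4 CPM in mock tips (SD, n = 3 each), and its mock libraries ran from 46.2 to 122 CPM.

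For HD-ZIP III, the xylem and polarity class, Glyma.06G086600 (chromosome 6, 6671446 to 6677876) was among the 2 highest genes per kilobase. It had 53.5, 46.1 and 52.9 CPM in PPZ plus BL tips, 26.9, 30.6 and 34.8 CPM in PPZ tips, 43.5, 47.5 and 39.3 CPM in BL tips and 43.5, 55 and 58.2 CPM in mock tips. PPZ libraries stood below all others. Its log2 fold change was 0.71 ± 0.13 in PPZ plus BL against PPZ (edgeR adjusted p = 0.00383) and -0.76 ± 0.15 in PPZ against mock (edgeR adjusted p = 0.00801). Glyma.11G145800 had 36.3, 33.4 and 38.6 CPM in PPZ plus BL tips, 35.8, 36.1 and 42.2 CPM in PPZ tips, 36.3, 36.9 and 30.6 CPM in BL tips and 41.1, 58.1 and 64 CPM in mock tips, and none of its comparisons with mock passed (edgeR adjusted p = 0.0404 in PPZ plus BL, 0.0532 in PPZ and 0.025 in BL). Of the 12 genes, 10 had a positive log2 fold change in PPZ plus BL against PPZ, with a median of 0.27 beside 0.01 over all genes, and 10 had a negative one in PPZ against mock, with a median of -0.46 beside 0.00 over all genes.

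HD-ZIP IV genes, the epidermal class, were low, and 8 of 29 were tested. Glyma.20G156500 (chromosome 20, 39501189 to 39508110) had 0.46, 0.49 and 0.75 CPM in PPZ plus BL tips, 0.61, 0.65 and 0.49 CPM in PPZ tips, 1.68, 1.98 and 1.76 CPM in BL tips and 1.83, 1.79 and 1.89 CPM in mock tips. Both groups with PPZ stood below both groups without it, with no overlap. It was lower than mock in PPZ plus BL (log2 fold change -1.68 ± 0.31 (SE), edgeR adjusted p = 0.00683) and in PPZ (log2 fold change -1.64 ± 0.27 (SE), edgeR adjusted p = 0.0041), and lower in PPZ than in BL (log2 fold change -1.62 ± 0.26 (SE), edgeR adjusted p = 0.00206). Each call against mock was kept in 1 of 6 fits (adjusted p up to 0.042 otherwise, edgeR), and that against BL in 4 of 6. In PPZ plus BL against BL it had a log2 fold change of -1.67 ± 0.28 and did not pass with edgeR (edgeR adjusted p = 0.061), while DESeq2 called it. BL itself gave -0.02 ± 0.21 against mock (edgeR adjusted p = 0.948).

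Glyma.10G238100, the best expressed HD-ZIP IV gene, had 2.32, 4.18 and 3.69 CPM in PPZ plus BL tips, 4.33, 3.45 and 2.45 CPM in PPZ tips, 7.29, 7.33 and 7.45 CPM in BL tips and 7.66, 6.77 and 5.51 CPM in mock tips. As with the last gene, the PPZ plus BL and PPZ libraries stood below the BL and mock libraries. The fold stayed under 3, and only PPZ against BL passed the adjusted p (log2 fold change -1.10 ± 0.21 (SE), edgeR adjusted p = 0.0044). All 8 HD-ZIP IV genes tested in PPZ against BL had a negative log2 fold change, between -1.62 and -0.19 with a median of -0.58 beside -0.01 over all genes, and 3 of them passed the adjusted p of 0.01, where 26.5% of all genes did in either direction. Glyma.15G016500 was called higher in PPZ plus BL than in mock, with 2.17, 2.42 and 2.24 CPM in PPZ plus BL tips and 0.71, 0.74 and 0.40 CPM in mock tips (log2 fold change 1.90 ± 0.31 (SE), edgeR adjusted p = 0.00484, kept in 1 of 6 fits). Glyma.09G265200, at a similar level, averaged 5.46 ± 1.42 CPM, 4.18 ± 0.26 CPM and 4.87 ± 0.10 CPM in PPZ plus BL, PPZ and BL tips and 4.2 ± 1.06 CPM in mock tips (SD, n = 3 each).

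PHD finger and DDT genes pair a homeodomain with a domain of chromatin proteins. None of these 10 genes was called. The 6 PHD finger genes summed to 67.5, 74.0 and 70.4 CPM in PPZ plus BL tips, 77.7, 76.5 and 72.0 CPM in PPZ tips, 68.4, 67.3 and 60.9 CPM in BL tips, and 103, 115 and 104 CPM in mock tips. All mock libraries lay above all treated libraries. Against mock, all 6 had a negative log2 fold change in PPZ plus BL (median -0.35), 5 of 6 in PPZ (median -0.48) and all 6 in BL (median -0.63). Glyma.20G130800 had 17.4, 20.9 and 21.5 CPM in PPZ plus BL tips, 23.8, 24.2 and 20.4 CPM in PPZ tips, 23.1, 22.5 and 20.2 CPM in BL tips and 34.6, 41 and 37 CPM in mock tips, a log2 fold change of -0.91 ± 0.14 in PPZ plus BL (edgeR adjusted p = 0.00353), -0.72 ± 0.12 in PPZ (edgeR adjusted p = 0.00425) and -0.77 ± 0.11 in BL (edgeR adjusted p = 0.00278). Glyma.10G260400 was close to it, at -0.80 ± 0.15 in PPZ plus BL (edgeR adjusted p = 0.00776), -0.52 ± 0.14 in PPZ (edgeR adjusted p = 0.0208) and -0.91 ± 0.12 in BL (edgeR adjusted p = 0.00206). Of the 4 DDT genes, Glyma.13G235300 had 93.6, 73.1 and 63.6 CPM in PPZ plus BL tips, 68.8, 70.4 and 81.3 CPM in PPZ tips, 59.9, 66.1 and 62.5 CPM in BL tips and 95.5, 109 and 121 CPM in mock tips and passed the adjusted p in BL against mock alone (log2 fold change -0.78 ± 0.12 (SE), edgeR adjusted p = 0.00329), and Glyma.13G175200 averaged 43.9 ± 7.67 CPM, 39.3 ± 1.29 CPM and 36.9 ± 1.94 CPM in PPZ plus BL, PPZ and BL tips and 42.2 ± 2.65 CPM in mock tips (SD, n = 3 each).

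**Figure D4:**
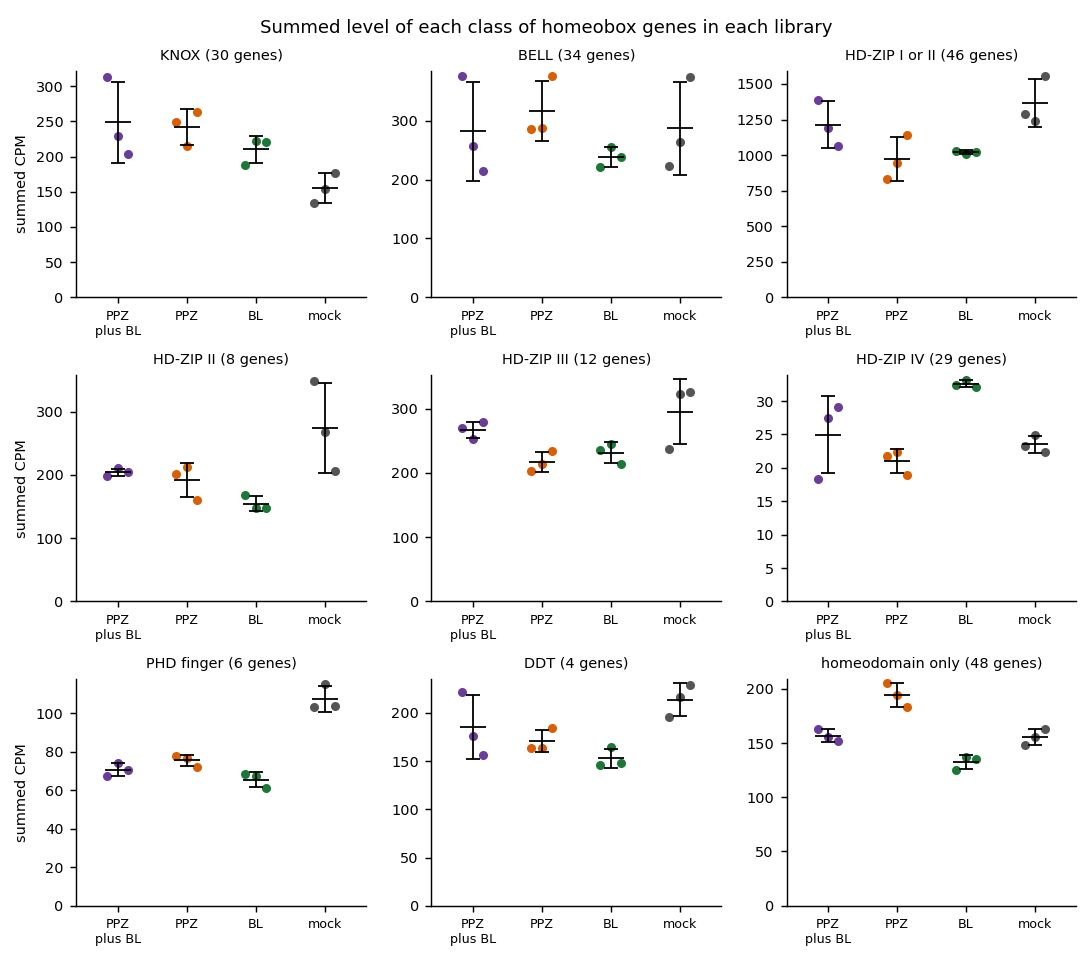
Summed level (CPM, y axis, from 0) of each class of homeobox genes in each library, by group (x axis). Points are libraries, horizontal bars the mean and whiskers the SD of 3 libraries. KNOX sums lie above mock in all treated groups and PHD finger sums below it, HD-ZIP IV sums are highest in BL tips, and sums of genes with a homeodomain alone are highest in PPZ tips.

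The 48 genes with a homeodomain alone are the class in which WOX genes fall, known in Arabidopsis from stem cell niches such as the root quiescent centre. The files used here do not say which of the 48 these are. In PPZ against mock 5 of 22 tested were called, 2 higher and 3 lower, where 6.33% of all genes were called higher and 2.81% lower. Glyma.14G084600 (chromosome 14, 7312209 to 7313930) was called in 4 comparisons, more than any other homeobox gene. It had 3.87, 3.11 and 3.69 CPM in PPZ plus BL tips, 0.87, 0.80 and 1.03 CPM in PPZ tips, 1.39, 2.7 and 2.17 CPM in BL tips and 0.10, 0.21 and 0.12 CPM in mock tips. The 4 groups did not overlap, with PPZ plus BL tips the highest, BL tips next, then PPZ tips, and mock tips close to 0. Counts summed to 225 in PPZ plus BL tips, 54 in PPZ tips, 140 in BL tips and 9 in mock tips, which gives ratios over mock of 24.9 (95% interval 12.9 to 55.2), 6.36 (3.11 to 14.6) and 14.7 (7.5 to 32.7). It was also higher in PPZ plus BL than in PPZ (log2 fold change 1.96 ± 0.23 (SE), edgeR adjusted p = 0.000572). The calls in PPZ plus BL against mock (edgeR adjusted p = 0.00048), in BL against mock (edgeR adjusted p = 0.0014) and against PPZ held in all 6 fits, and that in PPZ against mock (edgeR adjusted p = 0.00315) in 1 of 6.

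Glyma.11G064800 (chromosome 11, 4902921 to 4905262) was high in PPZ tips, with 7.23, 6.64 and 9.58 CPM in PPZ plus BL tips, 29.1, 26.6 and 13.6 CPM in PPZ tips, 2.58, 4.68 and 5.53 CPM in BL tips and 4.26, 7.82 and 4.87 CPM in mock tips. PPZ 3 stood apart from the other PPZ libraries but above all those of other groups. It was higher in PPZ than in mock (log2 fold change 2.04 ± 0.35 (SE), edgeR adjusted p = 0.00435) and than in BL (log2 fold change 2.46 ± 0.36 (SE), edgeR adjusted p = 0.00145). The second call held in all 6 fits, and the first was lost without mock 3, PPZ 1 or PPZ 2 (edgeR adjusted p 0.0148 to 0.0208). Glyma.01G177500 had 17.4, 16.5 and 7.21 CPM in PPZ tips and 3.36, 4.68 and 5.53 CPM in BL tips (log2 fold change 1.61 ± 0.35 (SE), edgeR adjusted p = 0.00756), a call kept in 1 of 6 fits. This gene held 136, 217 and 186 counts in PPZ plus BL libraries, 341, 330 and 147 in PPZ libraries and 151, 63 and 74 in mock libraries. Its PPZ libraries thus overlapped those of PPZ plus BL and mock tips.

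Glyma.17G056300 had the largest fitted change of all homeobox genes tested in PPZ plus BL against PPZ. It had 0.05, 0.08 and 0.10 CPM in PPZ plus BL tips, 3.97, 1.95 and 2.7 CPM in PPZ tips, 0.08, 0.67 and 0.93 CPM in BL tips and 0.41, 0.32 and 1.45 CPM in mock tips. The 3 PPZ plus BL libraries held 5 counts in all and the PPZ libraries 172, a ratio of 0.0274 (95% interval 0.00877 to 0.0651). The call held in all 6 fits (edgeR adjusted p = 0.000186). In BL and mock tips its libraries spread widely, and PPZ against mock did not pass (edgeR adjusted p = 0.0331).

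Glyma.04G040900 and Glyma.06G041800 were low in PPZ tips. Glyma.04G040900 (chromosome 4, 3248630 to 3249958) had 1.14, 1.84 and 1.05 CPM in PPZ plus BL tips, 0.36, 0.50 and 0.25 CPM in PPZ tips, 1.23, 0.84 and 1.5 CPM in BL tips and 1.12, 3.05 and 3.34 CPM in mock tips. Its PPZ libraries stood below all others. It was called higher in PPZ plus BL than in PPZ (log2 fold change 1.85 ± 0.40 (SE), edgeR adjusted p = 0.00854), lower in PPZ than in mock (log2 fold change -2.75 ± 0.52 (SE), edgeR adjusted p = 0.00633) and lower in PPZ than in BL (log2 fold change -1.67 ± 0.38 (SE), edgeR adjusted p = 0.00959), of which only the second was kept in any fit that left out 1 library, in 1 of 6. Glyma.06G041800 had 1.96, 1.89 and 0.55 CPM in PPZ plus BL tips, 0.15, 0.40 and 0.05 CPM in PPZ tips, 0.90, 1.14 and 1.09 CPM in BL tips and 0.96, 2.42 and 1.97 CPM in mock tips. It was lower in PPZ than in mock (log2 fold change -3.12 ± 0.64 (SE), edgeR adjusted p = 0.00872) and than in BL (log2 fold change -2.34 ± 0.52 (SE), edgeR adjusted p = 0.0088), each kept in 1 of 6 fits.

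The remaining called genes of this class were low. Glyma.02G254800 had 0.57, 0.61 and 0.50 CPM in PPZ plus BL tips, 0.10, 0.15 and 0.29 CPM in PPZ tips, 0.29, 0.17 and 0.41 CPM in BL tips and 1.01, 1.63 and 0.72 CPM in mock tips and was lower in PPZ than in mock (log2 fold change -2.56 ± 0.52 (SE), edgeR adjusted p = 0.00852, kept in 2 of 6 fits). Glyma.06G016800 had 1.64, 1.35 and 1.4 CPM in BL tips and 0.15, 0.47 and 0.48 CPM in mock tips (log2 fold change 1.96 ± 0.41 (SE), edgeR adjusted p = 0.00944, kept in 1 of 6 fits). This gene held 27, 28 and 25 counts in PPZ plus BL libraries and 31, 25 and 29 in PPZ libraries. Its BL libraries held 40, 32 and 27 and its mock libraries 3, 9 and 12, so its higher level was not particular to BL tips. Glyma.02G058900 held 39 counts in BL tips and 2 in mock tips, a ratio of 18.4 (95% interval 4.76 to 157), with the call (edgeR adjusted p = 0.00469) kept in 1 of the 4 fits that tested it. Its PPZ libraries held 6, 13 and 18 counts and its PPZ plus BL libraries 7, 10 and 9. No mock library held more than 1 count, so its higher level was not particular to BL tips. The best expressed genes of the class per kilobase, Glyma.18G288000 and Glyma.02G280300, were not called. The first averaged 21.8 ± 1.2 CPM, 25.2 ± 2.49 CPM and 19.3 ± 1.73 CPM in PPZ plus BL, PPZ and BL tips and 25.8 ± 3.99 CPM in mock tips (SD, n = 3 each). The second passed the adjusted p in BL against mock at a log2 fold change of -0.52 ± 0.11 (edgeR adjusted p = 0.00944) and in PPZ against BL at 0.51 ± 0.10 (edgeR adjusted p = 0.00515).

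The change after BL was then compared with and without PPZ. The first contrast was BL over mock and the second PPZ plus BL over PPZ, which share no libraries. Across the 139 homeobox genes tested in both, the log2 fold changes had a Pearson r of -0.02 and a Spearman rho of -0.08, where the 34961 annotated genes tested in both had 0.28 and 0.25. Opposite signs were found for 54.0% of the homeobox genes and 40.1% of all genes. These are descriptions across genes, which are not independent replicates.

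Whether the effect of BL depended on PPZ was tested as an interaction in 1 edgeR fit of all 12 libraries at an adjusted p of 0.01 with no fold threshold. It was called for 39 of 148 homeobox genes (26.4%), where 17.4% of all genes were. In 20 the BL effect was more positive with PPZ (7.73% of all genes) and in 19 more negative (9.69% of all genes). The 39 were picked for a difference between the BL effects with and without PPZ, which by itself favours opposite signs. The signs of all genes with an interaction were not counted. Of the 39, 20 had a negative BL effect without PPZ and a positive one with it and 15 the reverse. A further 1 was positive in both, 2 were negative in both, and 1 was not tested in 1 of the comparisons. The count was 21 without BL 3, 24 without BL 2 or PPZ plus BL 2, and 25 without mock 2. By class these were 14 of 40 tested HD-ZIP I or II genes, 10 of 23 with a homeodomain alone, 4 of 24 BELL, 4 of 23 KNOX, 4 of 12 HD-ZIP III, 2 of 8 HD-ZIP II and 1 of 4 DDT, and 0 of the 6 PHD finger and 8 HD-ZIP IV genes. All 4 HD-ZIP III and both HD-ZIP II genes had a positive interaction. Of the 39, 18 were called in none of the 6 comparisons. The same term is also the PPZ change with BL minus the PPZ change without BL. With BL, the PPZ change (PPZ plus BL against BL) was called in 2 of all genes and 0 homeobox genes. The interaction counts and those of PPZ against mock, which share libraries, are therefore not separate results.

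**Figure D5:**
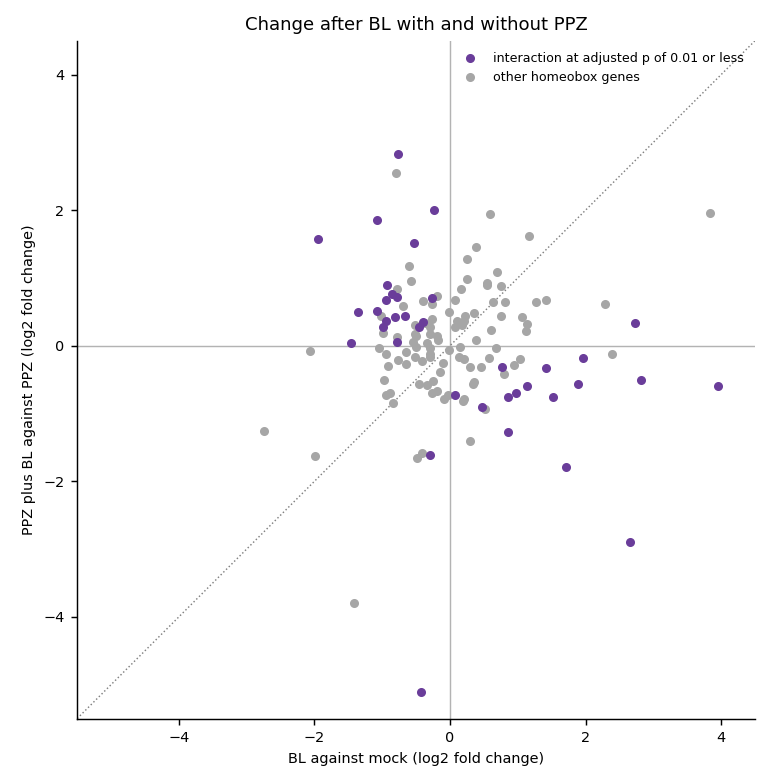
Log2 fold change in PPZ plus BL against PPZ (y axis) and in BL against mock (x axis) of the 139 homeobox genes tested in both. Purple points are genes with an interaction at an adjusted p of 0.01 or less, grey points the others, and the dotted line marks equal changes. Purple points lie mostly in the upper left and lower right, where the signs differ, and the cloud as a whole has no slope (r = -0.02).

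The smallest interaction p belonged to the abundant HD-ZIP gene Glyma.05G175600, whose levels stand above. Its log2 fold change was -1.35 ± 0.12 in BL against mock and 0.50 ± 0.12 in PPZ plus BL against PPZ, an interaction of 1.87 ± 0.16 (edgeR adjusted p = 4.46e-05). Glyma.18G014900 followed with 2.06 ± 0.25 (edgeR adjusted p = 0.000281), then Glyma.09G095700 with -2.27 ± 0.33 (edgeR adjusted p = 0.000591) and Glyma.08G016900 with -3.30 ± 0.49 (edgeR adjusted p = 0.000673). Glyma.10G289900, a gene with a homeodomain alone that was called in no comparison, had 6.61, 6.23 and 7.13 CPM in PPZ plus BL tips, 4.12, 4.3 and 3.58 CPM in PPZ tips, 6.06, 6.44 and 5.07 CPM in BL tips and 8.57, 12.2 and 9.5 CPM in mock tips. Its PPZ libraries were the lowest and its mock libraries the highest, and the interaction was 1.52 ± 0.23 (edgeR adjusted p = 0.000865). Each of these 5 interactions held in all 12 fits that left out 1 library. By contrast Glyma.20G156500, low in both groups with PPZ, had an interaction of -0.02 ± 0.36 (edgeR adjusted p = 0.976).

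Genes tied to homeobox proteins in other plants were described by Pfam lists. OVATE family proteins bind KNOX and BELL proteins in Arabidopsis. Of 42 such genes, 1 of 19 tested was called higher in PPZ plus BL tips (3.84% of all genes were), 1 of 19 in PPZ tips (6.33% of all genes) and 3 of 23 in BL tips (4.72% of all genes), each against mock, and 0 were called lower. Their median log2 fold change in BL against mock was 0.87, beside 0.01 over all genes, with 18 of 23 positive. Isopentenyltransferases, which make cytokinins and are raised by KNOX proteins in Arabidopsis, numbered 15. In PPZ plus BL against PPZ 3 of 8 tested were called, all higher, where 2.15% of all genes were called higher, with a median of 1.32, beside 0.01 over all genes. In PPZ against mock 1 of 7 was called lower, where 2.81% of all genes were, and all 7 had a negative log2 fold change, with a median of -0.71, beside 0.00 over all genes. The 2 KNOX genes called in that comparison were higher. KNOX genes were not split into class I and others here, and a link to the isopentenyltransferases was not tested. LBD proteins, whose member AS2 represses KNOX genes in Arabidopsis, numbered 89. In PPZ against mock 10 of 43 were called, 7 higher and 3 lower, where 6.33% of all genes were called higher and 2.81% lower. Of 37 ZF-HD genes, zinc finger proteins with a distant homeodomain, at most 7 were tested in any comparison, and 2 of 5 were called higher in PPZ against mock, where 6.33% of all genes were. In BL against mock 2 of 6 were also called higher, where 4.72% of all genes were. In PPZ against BL 2 of 7 were called lower, where 2.00% of all genes were.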

How the data were processed

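RNA-seq of 12 libraries (4 groups of 3) was analysed. Raw read counts per gene were deposited by the authors, who aligned reads with HISAT2 2.0.5 and counted them with featureCounts 1.5.0-p3, with no normalization. How multi-mapping reads and strand were handled is not given in the sources used here, so reads of near-identical paralogs may be split. The 12 FPKM columns and 25 columns of the authors' 5 comparisons (levels, fold changes, p-values) were not used.

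Counts were fitted with edgeR 4.0.16 (filterByExpr, TMM, glmQLFit and glmQLFTest) in R 4.3.3, with adjusted p-values over all genes tested, 980 loci outside the annotation included. Percentages were taken over annotated genes. Groups are as labelled. Labels do not say that replicates are separate cultures, so p-values measure the spread between these libraries. Calls required an adjusted p of 0.01 and a 3-fold change, the study's thresholds.

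Named genes were all called genes, up to 12 a direction and comparison, the 10 smallest interaction p and the 2 highest genes per kilobase in each class. Genes and lists were chosen with earlier results of these data known. A position overlap of 0.8 or more matched 187 genes to 1 RefSeq gene (Glycine_max_v4.0). Alternatives covered DESeq2 1.42.0, size factors, filter, thresholds, replicate block, all libraries in 1 fit and leaving out each library. Tables and plots were made with Python 3.11.15, NumPy 2.4.6, pandas 2.3.3 and Matplotlib 3.10.9.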

Additional observations from a re-analysis of the deposited data

Results flagged for a closer look

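For 24 named homeobox genes the change after BL differed between tips that had PPZ before it and tips that had no PPZ. The difference was tested by edgeR's interaction term over all 12 libraries (adjusted p of 0.01 or less). Values below are the log2 change with PPZ minus the log2 change without it. Interactions passed in 2 KNOX genes with a positive and 2 with a negative difference, and in 1 BELL gene with a positive and 3 with a negative one. The KNOX and BELL genes among the 24 had -2.38 for Glyma.15G202200, -2.27 for Glyma.09G095700, -3.30 for Glyma.08G016900 and -1.28 for Glyma.17G254000. Among HD-ZIP I or II genes it was -3.47 for Glyma.02G171300, -1.65 for Glyma.03G145800, -2.11 for Glyma.05G109500, -5.51 for Glyma.15G168800, -2.43 for Glyma.17G157600 and -6.93 for Glyma.09G062400. The last is no bound, since that gene had no counts in mock tips and its fitted change depends on the prior count. The value of Glyma.15G168800 also rests on a group near 0, with 0, 2 and 13 counts in mock libraries. Positive differences in this class were 1.87 for Glyma.05G175600, 1.64 for Glyma.06G190200, 1.14 for Glyma.08G132800, 2.06 for Glyma.18G014900 and 2.26 for Glyma.19G021100.

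The HD-ZIP III gene Glyma.06G086600 had 0.99 and the DDT gene Glyma.13G235300 had 0.85. Genes with a homeodomain alone had -4.54 (Glyma.02G058900), -2.12 (Glyma.06G016800), -4.65 (Glyma.17G056300), 3.53 (Glyma.02G254800), 2.95 (Glyma.04G040900), 3.62 (Glyma.06G041800) and 1.52 (Glyma.10G289900). Some of these sizes rest on a group near 0. Glyma.02G058900 held 1, 1 and 0 counts in mock libraries and Glyma.17G056300 1, 2 and 2 in PPZ plus BL libraries. In PPZ libraries Glyma.02G254800 held 2, 3 and 6 counts and Glyma.06G041800 3, 8 and 1. In 7 of the 24 the interaction was lost without several single libraries, with 2 to 6 of 12 fits keeping it. These were Glyma.04G040900, Glyma.06G016800, Glyma.06G041800, Glyma.09G062400, Glyma.13G235300, Glyma.17G056300 and Glyma.17G254000, and Glyma.06G086600 lost it without BL 3 alone (edgeR adjusted p = 0.0102).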

How the results depend on the processing

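The 91 calls of named genes were recomputed under the alternatives, giving 1210 values. None was reversed, and the 284 that lost the call kept their direction. Named genes with no call were not recomputed. Of the 284, 234 were lost on leaving out 1 library. The number of homeobox genes called ran on leaving out 1 library from 4 to 12 in BL against mock, 10 to 25 in PPZ against mock, 3 to 16 in PPZ plus BL against mock, 6 to 11 in PPZ plus BL against PPZ, 0 to 0 in PPZ plus BL against BL, 7 to 9 in PPZ against BL, and 21 to 42 for the interaction. With no fold threshold the counts were 26, 44 and 22 for BL, PPZ and PPZ plus BL against mock, 27 for PPZ plus BL against PPZ and 30 for PPZ against BL. With the interaction at an adjusted p of 0.05, 64 passed. DESeq2 called 18 in PPZ plus BL against mock and 1 in PPZ plus BL against BL. Under scaling by library size alone, all genes together had a median log2 change of -0.12 in PPZ against mock, -0.17 in PPZ against BL and 0.19 in PPZ plus BL against PPZ.

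With the replicate number as a block, 6 were called in BL against mock, 17 in PPZ against mock, 3 in PPZ plus BL against mock, 8 in PPZ plus BL against PPZ, 0 in PPZ plus BL against BL and 8 in PPZ against BL, and 28 interactions passed. Deviations of same-numbered libraries correlated at -0.303 to 0.152 (18 pairs) and those of different-numbered libraries at -0.307 to 0.307 (36 pairs). Libraries with the same number were thus no more alike than others. With 3 libraries in each group this cannot exclude a shared batch. Genes at 0 in all 12 libraries allow at most 3 counts in each, and their absence cannot be told from a level under that.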
